A study of Mus musculus with 6 samples.

Results

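Nuclear-encoded respiratory chain genes were read in 6 RNA libraries from organoids of KPC mouse pancreatic tumours, 3 heterozygous for mutant Trp53 and 3 that had lost heterozygosity (LOH). The set holds every gene of the authors' protein-coding table whose symbol begins with Nduf, Uqcr, Cox4 to Cox8 or Atp5, together with Sdha, Sdhb, Sdhc and Sdhd. That gave 88 genes out of 53379 in the annotation. The names take in 8 assembly factors of complex I (Ndufaf), 5 alternative isoforms or paralogs of complex IV subunits and Atp5s, which is no subunit of the ATP synthase, so these are described apart from the 74 common subunits. Of the 88, 86 had enough counts to be tested, and Cox4i2 and Ndufa4l2 had not.

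The organoids are epithelial cultures in a matrigel dome from C57/Bl6 mice carrying Pdx1-Cre, which acts in cells of the pancreatic lineage and, for mutant p53, the conditional allele Trp53LSLR172H. Pdx1-Cre is shared by both groups. Heterozygous libraries keep a wild-type Trp53 allele (Trp53LSLR172H/+), and LOH libraries, titled R172H/LOH, are listed as Trp53LSLR172H/-. Each of the 3 tumour lines, numbered 6, 23 and 34, gave 1 library of either genotype, so n = 3 lines, and values below are always in that order. The LOH libraries also carry the suffix Nut in their descriptions; what it stands for is not given in the sources used here, and it cannot be told apart from the genotype. The labels do not name separate cultures beyond the line, so the p-values measure the spread between these 6 libraries. Whether fewer cells of a kind or less RNA per cell lies behind a bulk value cannot be told apart.

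Complexes I to IV pass electrons from NADH and succinate to oxygen in the inner mitochondrial membrane, and complexes I, III and IV pump protons while doing so. Complex V, the ATP synthase, uses the returning protons to make ATP. Most subunits are encoded in the nucleus and imported, while a small core of complexes I, III, IV and V is encoded by the mitochondrial genome, so that each of these complexes is built from both genomes. Promoters of the nuclear genes are textbook targets of NRF1, of the ETS factor GABPA, of YY1 and of the estrogen-related receptors. p53 has been linked to respiration through targets such as Sco2, a copper chaperone of complex IV, and Gls2, a mitochondrial glutaminase.

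Promoter windows of 4 genes are shown because these are the genes of the set called by edgeR or DESeq2 for which the RefSeq table has a window: Ndufaf2 and Ndufaf4, both assembly factors of complex I, Sdha, the flavoprotein of complex II, and Ndufa6, an accessory subunit of complex I. The windows run from 250 bases before to 50 bases after the RefSeq start on build GRCm38.p6: chr13:108158576-108158875 on the minus strand for Ndufaf2, chr4:24897833-24898132 on the plus strand for Ndufaf4, chr13:74350191-74350490 on the minus strand for Sdha and chr15:82354242-82354541 on the minus strand for Ndufa6. Each is written 5′ to 3′ on the strand of its gene, and capitals mark matches, on either strand, to the NRF1 motif, which is GCGCA, any base, then GCGC.
Ndufaf2: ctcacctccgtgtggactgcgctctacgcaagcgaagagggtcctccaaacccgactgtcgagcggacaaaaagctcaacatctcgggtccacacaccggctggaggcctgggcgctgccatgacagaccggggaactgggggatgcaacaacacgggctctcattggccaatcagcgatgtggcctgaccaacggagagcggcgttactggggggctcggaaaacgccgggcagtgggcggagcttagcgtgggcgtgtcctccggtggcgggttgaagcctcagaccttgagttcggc
Ndufaf4: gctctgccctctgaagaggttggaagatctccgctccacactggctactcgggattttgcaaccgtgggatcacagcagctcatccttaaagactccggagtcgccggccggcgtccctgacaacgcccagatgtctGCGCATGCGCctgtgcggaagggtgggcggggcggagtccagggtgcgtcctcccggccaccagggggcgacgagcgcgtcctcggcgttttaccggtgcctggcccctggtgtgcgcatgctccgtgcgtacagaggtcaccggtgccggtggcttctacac
Sdha: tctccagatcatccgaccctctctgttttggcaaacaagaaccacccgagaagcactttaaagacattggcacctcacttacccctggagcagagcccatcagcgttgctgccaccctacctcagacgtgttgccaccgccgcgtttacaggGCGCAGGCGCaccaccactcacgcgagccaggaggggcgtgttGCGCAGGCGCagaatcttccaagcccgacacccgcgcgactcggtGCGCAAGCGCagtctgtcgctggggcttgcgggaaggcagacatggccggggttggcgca
Ndufa6: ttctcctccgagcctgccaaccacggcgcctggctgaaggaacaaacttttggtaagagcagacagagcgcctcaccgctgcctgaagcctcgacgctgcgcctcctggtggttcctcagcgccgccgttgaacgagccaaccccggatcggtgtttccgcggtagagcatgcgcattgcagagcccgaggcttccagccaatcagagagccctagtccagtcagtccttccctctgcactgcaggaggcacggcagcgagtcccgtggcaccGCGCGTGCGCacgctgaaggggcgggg

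Sdha held 3 such matches, Ndufaf4 and Ndufa6 held 1 each, and Ndufaf2 held none. RefSeq windows were found for 74 of the 88 genes. The NRF1 motif, read on both strands and counted once where the strands coincide, was present in 19 of the 74 (25.7%) and in 7.17% of 17492 protein-coding genes with windows of the same length. The YY1 motif AANATGGCG was present in 11 (14.9%) against 3.64%, the estrogen-related receptor site AAGGTCA in 8 (10.8%) against 4.73%, and the ETS motif CCGGAAGT in 5 (6.76%) against 5.69%. No motif is contained in another, and overlapping matches of different motifs were both counted. Median GC content was 58.7% in windows of the set and 56.3% in all windows. A match describes the letters of the window only. Genes with an NRF1 match had a median log2 difference between LOH and heterozygous libraries of -0.22 (13 of 19 below 0), and those with a window but no match of -0.08 (32 of 55 below 0), with overlapping ranges of -1.39 to 0.77 and -1.38 to 0.95.

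Library totals ranged from 13680458 to 27917277 counts, and the respiratory chain set made up 1.001%, 1.167% and 1.177% of protein-coding counts with heterozygous Trp53 and 1.137%, 0.8701% and 0.8885% with LOH. Protein-coding genes as a whole held 67.9% to 73.3% of counts in heterozygous and 61.4% to 67.2% in LOH libraries. Trp53 itself stood at 77.3, 76.3 and 86.5 CPM (counts relative to the library size as scaled by TMM) in heterozygous and at 73.5, 52.5 and 47.4 CPM in LOH libraries; gene counts do not separate the alleles, so this checks the labels only in part. Mdm2, a p53 target, fell from 74.0, 68.6 and 68.5 to 22.2, 30.6 and 35.1 CPM (log2 difference -1.26, adjusted p = 0.0284 in edgeR). Cdkn1a, another target, stood at 27.5, 24.9 and 22.0 against 8.03, 21.7 and 19.05 CPM (adjusted p = 0.339). Summed over the markers chosen for each cell type, epithelial genes reached 2568 to 4919 TPM in the 6 libraries, and fibroblast, leukocyte and endothelial genes each stayed at or below 0.29 TPM; acinar genes stayed at or below 2.46 TPM and muscle genes at or below 1.19 TPM. Lyz2, Adgre1, Col3a1 and Myl2 were among the markers at 0 counts in all 6.

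Per transcript length, subunits of complex V and complex IV stood highest in heterozygous libraries. Atp5b, the catalytic beta subunit, led at 803 ± 19.1 TPM (SD, n = 3), followed within the F1 head by Atp5a1 at 424 ± 12.98, Atp5c1 at 222 ± 25.0, Atp5e at 198 ± 14.2 and Atp5d at 163 ± 10.2 TPM. Of these neighbours, Atp5c1 and Atp5e overlapped between libraries and the other pairs did not. The 11 common subunits of complex IV ran from Cox8a at 392 ± 49.9 TPM and Cox4i1 at 351 ± 18.7 TPM down to Cox7a2 at 153 ± 9.99 TPM. In complex III the small subunits Uqcr11 and Uqcrh, at 303 ± 25.5 and 281 ± 19.7 TPM, stood above Uqcrfs1, the Rieske iron-sulfur protein, at 88.0 ± 2.83 TPM. Among core subunits of complex I, Ndufv2 stood at 88.1 ± 2.55 TPM and Ndufs1 at 48.2 ± 5.38 TPM, and complex I assembly factors lay between 6.80 and 20.9 TPM. Of the 3 genes for the c ring of the ATP synthase, which encode the same mature protein, Atp5g3 came first at 246 ± 26.6 TPM, then Atp5g1 at 166 ± 12.9 and Atp5g2 at 102 ± 1.73 TPM.

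Isoforms typical of other tissues were near absent. Cox4i2, the lung form of subunit 4, had a single count in 2 libraries and none in the other 4, and Ndufa4l2, the hypoxia-linked paralog of Ndufa4, lay at 0 to 0.189 CPM. Cox7a1, the heart and muscle form of subunit 7a, ran from 0.234 to 1.06 CPM, against 49.98 to 89.2 CPM for its common counterpart Cox7a2. Cox6b2, the testis form of subunit 6b, ran from 0.0582 to 1.34 CPM. A count of 3, the smallest taken as detected, corresponds to 0.1 to 0.223 CPM depending on the library. Cox7a2l, a paralog of Cox7a2 that takes part in supercomplexes, was no tissue form: it stood at 154 ± 10.2 TPM in heterozygous and 153 ± 21.9 TPM in LOH libraries.

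**Figure D1:**
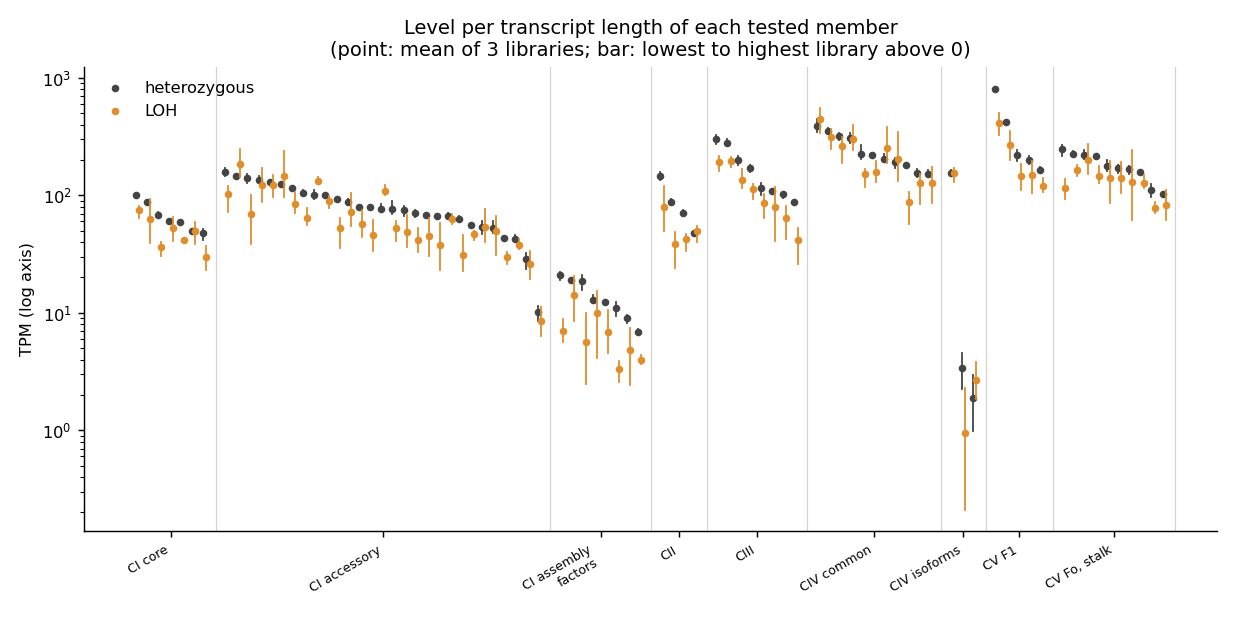
Level of each tested gene except Atp5s on a log axis in TPM, ordered within its class by the heterozygous mean. Points are means of 3 libraries and bars run from the lowest to the highest library above 0, in grey for heterozygous and orange for LOH; Atp5b at 803 TPM is the highest point, the complex I assembly factors sit between 6.80 and 20.9 TPM in grey, and LOH points lie mostly below grey ones on this scale, as they do for genes at large.

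The comparison of LOH with heterozygous libraries asks how respiratory chain expression differs once the wild-type p53 allele is gone. Across the set the difference was small: 1 of 86 genes, the complex I assembly factor Ndufaf2, passed an adjusted p of 0.05 in edgeR's quasi-likelihood test, where it fell, and none rose. In the whole transcriptome 5.21% of 14537 tested genes passed in either direction and 1.66% passed and were lower in LOH, so 1 of 86 (1.16%) is near the background. At an unadjusted p under 0.05, 14 of 86 (16.3%) were found against 25.3% of all genes; 5 (5.81%) were higher against a background of 14.7%, and 9 (10.5%) were lower against 10.6%. By class these 14 were 1 core subunit, 4 accessory subunits and 3 assembly factors of complex I, 1 gene each of complexes II and III, 2 of complex IV and 2 of complex V. Levels of the 2 genotypes did not overlap and were higher in LOH for 9 genes (10.5%; 16.4% of all genes), and did not overlap and were lower for 14 genes (16.3%; 16.5% of all genes).

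The log2 differences were also compared by their spread. The interquartile range of the log2 difference was 0.52 among the 83 genes of the set with a mean of at least 5 CPM and 0.81 among all 10075 such genes, but the levels were unlike, with medians of 56.3 and 29.8 CPM. At that level 2 of the 83, Ndufaf4 and Ndufaf2, differed at least 2-fold (2.41%), against 13.7% of all genes. Adding the 3 low genes brings Ndufaf6, with an overall mean just under 5 CPM, and Cox6b2 past 2-fold, 4 of 86 in all. The median log2 difference was -0.09 for the set and 0.06 for all tested genes. The median of the set moved to -0.20 and -0.24 without the heterozygous or LOH library of line 6, and to -0.05 and 0.01 without those of line 23; without both libraries of line 23 it was 0.07. On log2(TPM + 1) with limma the median of all genes moved to -0.35, of 1911 calls 1631 were lower in LOH (against 241 of 757 in edgeR), and the median of the set was -0.50; relative to all genes it was -0.16 in edgeR and -0.15 on TPM. Signs below are those of edgeR, and where a class changes sign on TPM this is stated beside it.

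**Figure D2:**
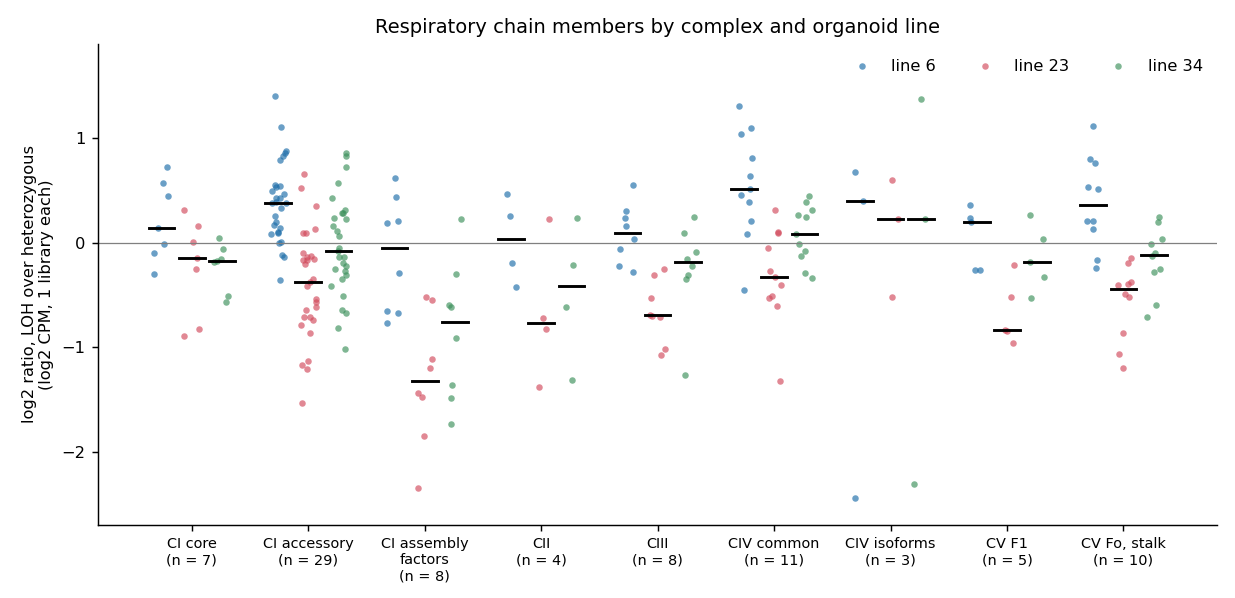
log2 ratio of CPM, LOH over heterozygous, for each tested gene except Atp5s within each organoid line, by class. Each point is 1 gene in 1 line, bars are medians, and the number of genes is under each class. Line 6 medians lie above those of line 23 in each class plotted, and the lowest median is that of the complex I assembly factors in line 23, at -1.32.

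Complex I assembly factors, which help build the enzyme and are not part of it, had, with complex II, the lowest medians of the classes. All 8 log2 differences were below 0, as were 6687 of all 14537 tested genes. The median of the 8 was -0.49, or -0.55 relative to all genes in edgeR and -0.50 on TPM. The median was -0.88 without the LOH library of line 6 and -0.29 without that of line 23. Ndufaf2, which binds a late intermediate of complex I, was read at 7.87, 10.6 and 10.6 CPM in heterozygous and at 4.89, 3.85 and 3.73 CPM in LOH libraries. The genotypes did not overlap, and the LOH value was the lower in each line. That is a log2 difference of -1.22 (SE 0.27, adjusted p = 0.0477), or 0.428 of the heterozygous mean. With the organoid line as a block the value was -1.22 with an adjusted p of 0.144, and no gene of the set passed, against 1.47% of all genes (10 of 86 had an unadjusted p under 0.05). Its adjusted p was 0.142, 0.184 and 0.236 without the heterozygous library of line 6, 23 or 34, where no gene at all passed, 0.0920 and 0.0737 without the LOH library of line 23 or 34, and 0.0243 without that of line 6. The gene spans chr13:108002715-108158623 in GRCm38 and overlaps Smim15 and B230220B15Rik on the other strand; the strand setting of the counting is not given in the sources used here.

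Ndufaf6, needed for an early subcomplex, was read at 5.50, 8.53 and 7.21 CPM in heterozygous and 3.202, 2.30 and 2.75 CPM in LOH libraries. Again the groups were apart, with a log2 difference of -1.36 (SE 0.31) and an adjusted p of 0.0521 in edgeR. Ndufaf4, a partner of Ndufaf3 in early assembly, stood at 30.6, 25.7 and 32.4 against 19.3, 4.98 and 9.69 CPM. The groups did not overlap, but the LOH libraries spread from 4.98 to 19.3 CPM, and the log2 difference of -1.39 (SE 0.46) had an adjusted p of 0.119. Ndufaf7, a methyltransferase of the mitochondrial matrix, also had groups apart, at 12.3, 13.4 and 13.1 against 10.01, 9.10 and 10.6 CPM, a log2 difference of -0.38 with an adjusted p of 0.280. The other 4 factors overlapped between genotypes, with log2 differences from -0.52 for Ndufaf5 to -0.03 for Ndufaf3.

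Among the 7 nuclear core subunits of complex I, which hold the flavin and iron-sulfur centres, none passed the test and the median log2 difference was -0.10 (-0.19 without the heterozygous library of line 6, and -0.06 without that of line 23 or 34 or the LOH library of line 23). Ndufs3 was the lowest, at 44.4, 53.6 and 55.8 CPM in heterozygous and 36.0, 30.1 and 39.2 CPM in LOH libraries. Its groups did not overlap, with a log2 difference of -0.55 (SE 0.19, adjusted p = 0.137). At the other end Ndufs8 stood at 30.8, 39.3 and 38.1 against 50.9, 48.7 and 39.2 CPM. Its line 34 values were 38.1 and 39.2 CPM, and the difference of 0.36 had an adjusted p of 0.300.

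The 29 accessory subunits of complex I split about evenly, 15 above and 14 below 0, with a median log2 difference of 0.05 that lay at -0.34 on TPM; relative to all genes it was -0.01 and 0.01. It was -0.09 without the heterozygous library of line 6, -0.14 and -0.03 without the LOH library of line 6 or 34, and 0.18 without that of line 23. None passed the test. Ndufa6, a subunit of the LYR family placed at the matrix arm, was read at 31.6, 42.7 and 35.3 CPM in heterozygous and 54.8, 67.3 and 63.9 CPM in LOH libraries. It was higher in LOH in every line by a similar ratio, and the groups were apart, with a log2 difference of 0.77 (SE 0.20, adjusted p = 0.0695). Ndufa7 was read at 42.1, 46.4 and 47.4 against 90.9, 66.5 and 63.5 CPM. It too was higher throughout, most in line 6, with a log2 difference of 0.70 (SE 0.20, adjusted p = 0.0908). Ndufv3 stood at 32.0, 46.5 and 35.0 against 57.1, 59.3 and 57.8 CPM, so the LOH libraries were close to each other and all above the heterozygous ones (log2 difference 0.62, adjusted p = 0.113). On the lower side Ndufab1, the mitochondrial acyl carrier protein, went from a mean of 53.6 ± 5.92 to 33.2 ± 13.2 CPM, and Ndufb6 from 28.5 ± 3.46 to 17.7 ± 6.01 CPM, with adjusted p-values of 0.232 and 0.174 in edgeR.

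Complex II, succinate dehydrogenase, is encoded by the nucleus alone and also belongs to the tricarboxylic acid cycle. Its median log2 difference was -0.44, and relative to all genes -0.51 in edgeR and -0.50 on TPM, with no gene past the test. The median was -0.25 without the LOH library of line 23 and -0.22 with chromosome medians removed. Sdha, the catalytic flavoprotein, stood at 188, 231 and 202 CPM in heterozygous and 140, 130 and 81.1 CPM in LOH libraries. Every LOH library was below every heterozygous one, and the log2 difference was -0.82 (SE 0.24, adjusted p = 0.0952). Sdhd, a membrane anchor, was read at 114, 163 and 146 against 136, 62.4 and 94.8 CPM. It was higher in LOH in line 6 and lower in lines 23 and 34. Sdhb, the iron-sulfur subunit, had a log2 difference of -0.36 and overlapped between genotypes. The second anchor, Sdhc, was read at 50.1, 74.6 and 63.6 against 69.0, 87.2 and 74.6 CPM, higher in LOH within each line although the groups overlapped (log2 difference 0.29, adjusted p = 0.415 in edgeR).

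**Figure D3:**
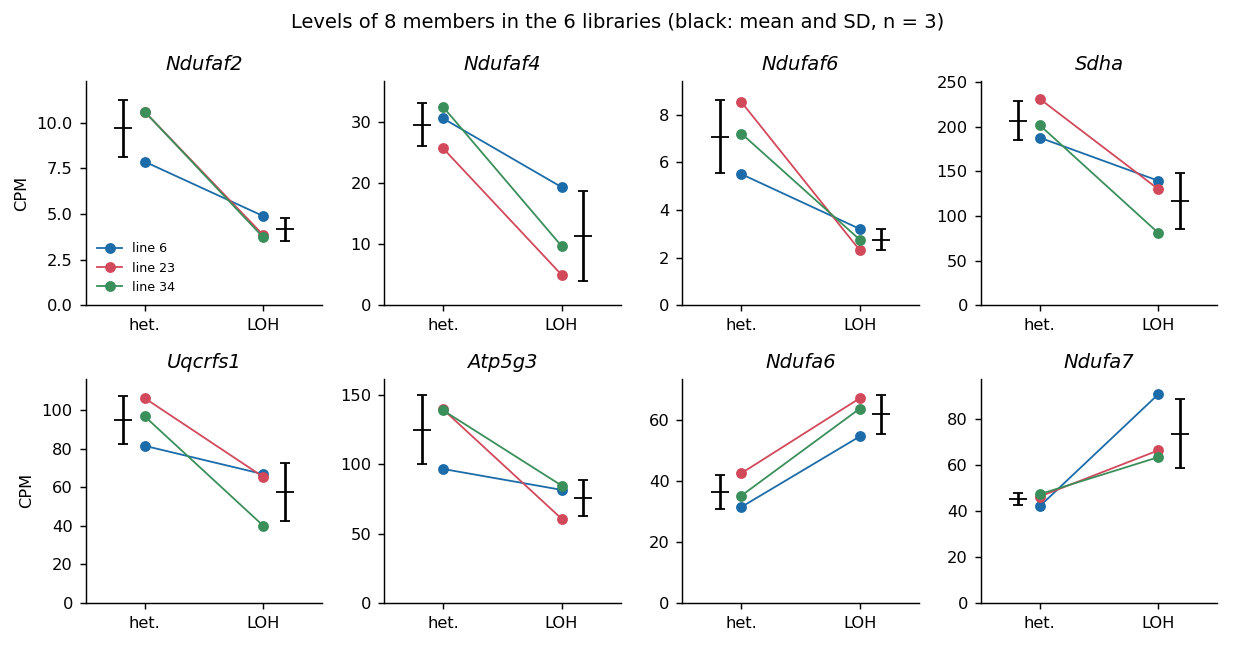
CPM of 8 genes in the 6 libraries, heterozygous (het.) and LOH, with a line joining the libraries of 1 organoid line and black marks for the mean and SD of 3 libraries. In all 8 panels the LOH values lie on 1 side of the heterozygous ones, which does not hold for most of the set. Of 86 genes, levels did not overlap and were higher in LOH for 9 (10.5%) and lower for 14 (16.3%). Over all genes these shares were 16.4% and 16.5%. Ndufaf2, at 3.73 to 4.89 against 7.87 to 10.6 CPM, is the gene with an adjusted p under 0.05 in edgeR.

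All 8 subunits of complex III, the cytochrome bc1 complex, had log2 differences below 0, from -0.72 to -0.05 with a median of -0.21, and none passed the test. The median was -0.34 without either library of line 6, -0.13 without the heterozygous library of line 23 and -0.08 with chromosome medians removed. Within lines the sign was not shared: 5 of 8 ratios were above 0 in line 6, none in line 23 and 2 in line 34. Uqcrfs1 was the lowest, at 81.4, 106 and 96.6 CPM in heterozygous and 66.7, 65.3 and 40.0 CPM in LOH libraries. Its groups were apart, with a log2 difference of -0.72 (SE 0.25, adjusted p = 0.128). The core proteins Uqcrc1 and Uqcrc2 overlapped between genotypes, and the LOH values of Uqcrc1, at 186, 70.1 and 142 CPM, spanned more than the heterozygous ones, at 127, 148 and 151 CPM.

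The 11 common subunits of complex IV, cytochrome c oxidase, had a median log2 difference of 0.13, with 8 above 0, but the sign turned to -0.30 on TPM; relative to all genes the median was 0.07 and 0.05. In edgeR it was -0.0027 without the heterozygous library of line 6, 0.0040 and 0.02 without the LOH library of line 6 or 34, 0.24 and 0.31 without the heterozygous or LOH library of line 23, and -0.13 without both libraries of line 6. None passed the test. Cox8a was read at 106, 164 and 141 CPM in heterozygous and 228, 204 and 167 CPM in LOH libraries. The lowest LOH library was just above the highest heterozygous one, and the log2 difference was 0.54 (SE 0.22, adjusted p = 0.189). Cox6c stood at 59.1, 77.4 and 66.7 against 146, 82.3 and 87.1 CPM, again with groups apart and line 6 well above the rest (log2 difference 0.64, adjusted p = 0.195). Cox5a, a subunit on the matrix side, went the other way, from a mean of 79.5 ± 6.90 to 51.1 ± 17.4 CPM without overlap (log2 difference -0.64, adjusted p = 0.206). Cox4i1, the common form of subunit 4, had means of 184 ± 25.8 and 211 ± 24.5 CPM. Cox7a2l was read at 105, 146 and 130 against 168, 171 and 151 CPM. Its groups were apart by a narrow margin, with a log2 difference of 0.36 and an adjusted p of 0.274 in edgeR.

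In complex V the F1 head, where ATP is made, had all 5 subunits below 0 with a median log2 difference of -0.23. The median was -0.41 and -0.38 without the heterozygous or LOH library of line 6, -0.10 and -0.07 without those of line 23, and 0.04 without both of the latter. Atp5b was read at 881, 1115 and 1110 CPM in heterozygous and 734, 572 and 771 CPM in LOH libraries. The groups did not overlap, with a log2 difference of -0.58 (SE 0.20, adjusted p = 0.129). Its partner Atp5a1, the alpha subunit, was read at 727, 944 and 910 against 830, 527 and 724 CPM, higher in LOH in line 6 and lower in the other 2 lines. The 10 subunits of the membrane part and stalk were split, 5 above and 5 below 0, with a median of 0.00 that was -0.42 on TPM and close to all genes on either scale (-0.06 and -0.07 relative to them); without the LOH library of line 6 or 23 it was -0.22 and 0.08. The c-ring gene Atp5g3 stood at 96.7, 140 and 139 against 81.6, 60.8 and 84.7 CPM. It did not overlap between genotypes (log2 difference -0.72, SE 0.23, adjusted p = 0.107), while Atp5g1, at 60.4, 79.7 and 82.3 against 131, 38.1 and 54.3 CPM, was above its heterozygous partner in line 6 and below it in lines 23 and 34. Atp5j, a stalk subunit, had groups apart with a log2 difference of -0.24 and an adjusted p of 0.402 in edgeR. Atp5s, which shares the gene family name only, was higher in LOH without overlap in CPM, at 6.11, 7.20 and 6.24 against 8.03, 11.4 and 7.68 CPM (adjusted p = 0.297 in edgeR). On TPM the groups overlapped and the LOH mean was the lower, at 9.40, 9.70 and 8.38 against 6.23, 10.23 and 7.02 TPM.

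Ratios differed between the lines. The median log2 ratio of the set, LOH over heterozygous, was above 0 in line 6 (0.25) and below it in lines 23 (-0.52) and 34 (-0.14), or 0.27, -0.54 and -0.19 relative to all genes of the same line. Of 86 genes 64 had a ratio above 0 in line 6, 16 in line 23 and 32 in line 34. The sign was shared by all 3 lines for 32 genes (37.2%), against 44.5% of all tested genes. Summed CPM of the set was 6235, 8048 and 7609 in heterozygous and 7573, 5643 and 6707 in LOH libraries, so the genotypes overlapped. With 1 library of either genotype per line, the difference between lines was not tested. Without the LOH library of line 6, 6 of 86 genes passed in edgeR (Ndufa6 higher; Ndufaf2, Ndufaf4, Ndufaf6, Ndufb6 and Sdha lower), but so did 16.2% of all genes.

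**Figure D4:**
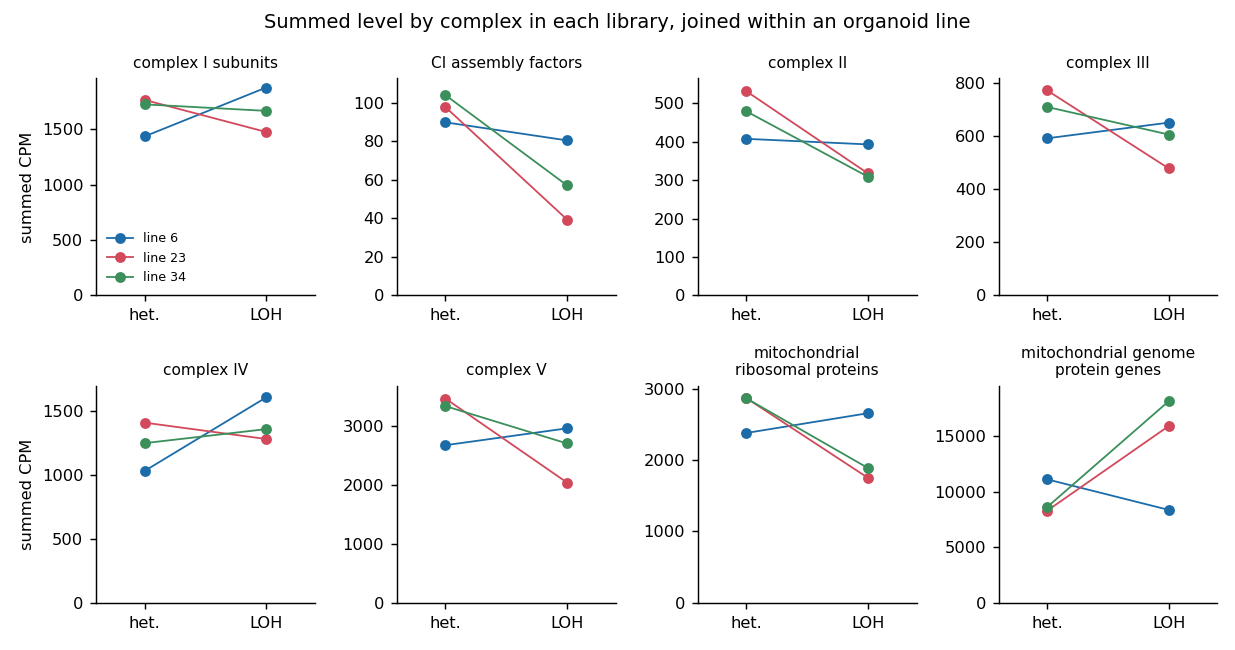
Summed CPM of each complex, of the complex I assembly factors, of mitochondrial ribosomal proteins and of the protein genes of the mitochondrial genome, in each library; a line joins the heterozygous (het.) and LOH library of 1 organoid line and each axis starts at 0. Line 23 goes down in all 7 nuclear panels, line 6 goes up in 5 of them (all but the assembly factors and complex II), and in the mitochondrial genome panel line 6 goes down (11128 to 8376) while lines 23 and 34 go up.

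Other lists of the same biology, chosen like the set with earlier results of these data known, were read beside it. Mitochondrial ribosomal proteins, which translate the mitochondrially encoded subunits, had 69 of 78 log2 differences below 0 and a median of -0.44, or -0.50 relative to all genes in edgeR and -0.49 on TPM, with 1 gene past the test. That gene, Mrpl36, was read at 25.6, 33.0 and 27.0 against 16.8, 11.6 and 10.2 CPM (log2 difference -1.14, adjusted p = 0.0490) and overlaps Ndufs6 on the other strand. This 1 call of 78 stands beside 1.66% of all genes called and lower. At an unadjusted p under 0.05 in edgeR 21 of 78 were lower, against 10.6% of all genes, and 0 were higher, against 14.7%. Groups were apart and lower for 29 of 78 (16.5% of all genes) and apart and higher for 1 (16.4%). The 13 protein genes of the mitochondrial genome went the other way: their median log2 ratios were -0.70, 1.01 and 1.05 in lines 6, 23 and 34, opposite in sign to the nuclear set in each line, and none passed the test. Among them mt-Co1, the catalytic subunit of complex IV, was read at 5036, 3902 and 4472 CPM in heterozygous and 4498, 8362 and 9052 CPM in LOH libraries (log2 difference 0.71, adjusted p = 0.188). Mitochondrial rRNA, which the same genome encodes, took 12.9% to 14.4% of counts in heterozygous and 11.3% to 16.8% in LOH libraries.

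Of 13 further respiratory chain genes outside the naming rule none passed, with a median log2 difference of -0.14; Coq7, an enzyme of ubiquinone synthesis, had the lowest adjusted p of them, 0.114, at 12.01, 13.7 and 15.1 against 10.1, 6.19 and 5.36 CPM. None of 37 tested assembly factors with other names passed (median -0.12). Atpaf1, a chaperone of the F1 head, came nearest, at 16.6, 19.8 and 18.4 against 9.90, 9.82 and 11.1 CPM (log2 difference -0.83, adjusted p = 0.0577). Regulators of mitochondrial biogenesis had a median of -0.28 with none of 16 past the test. They were split, 6 above and 10 below 0, and the highest log2 difference was 2.34. Groups were apart and higher for 3 of them, and apart and lower for 3. Polrmt, the mitochondrial RNA polymerase, came nearest at 30.9, 26.7 and 27.8 against 18.9, 15.1 and 12.7 CPM (adjusted p = 0.0625 in edgeR). None of the 6 p53 targets linked to respiration passed either, with 5 of 6 below 0 and a median of -0.50. Relative to all genes that median was -0.57 in edgeR and -0.40 on TPM. The lowest log2 difference of the 6 was that of Sco2, at -1.02. Gls2 was read at 5.44, 4.82 and 6.21 against 4.31, 2.87 and 1.68 CPM, apart between genotypes, with a log2 difference of -0.90 and an adjusted p of 0.211. At an unadjusted p under 0.05 in edgeR these lists held 2 of 13, 5 of 37, 4 of 16 and 0 of 6 genes, and the mitochondrial genome 1 of 13, against 25.3% of all genes.

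Enzymes that feed the chain gave 1 call in either list, of 22 and 17 tested genes, counts near the background of 5.21% of all genes. At an unadjusted p under 0.05 in edgeR, 8 of 22 tricarboxylic acid cycle and pyruvate dehydrogenase genes were found (2 higher, 6 lower). Among glycolysis enzymes 4 of 17 were found, all higher, and the share over all genes was 25.3%. In the tricarboxylic acid cycle and pyruvate dehydrogenase list, with a median of -0.26 over 22 tested genes, Pcx, the pyruvate carboxylase that replenishes the cycle, rose from 34.9, 35.7 and 26.4 to 73.5, 101 and 58.4 CPM (log2 difference 1.27, adjusted p = 0.0412). Glycolysis enzymes had 14 of 17 log2 differences above 0 and a median of 0.34, which turned to -0.07 on TPM; relative to all genes it was 0.27 and 0.28. Pfkm, the muscle type phosphofructokinase, rose from 15.6, 18.5 and 17.7 to 43.2, 48.2 and 57.0 CPM (log2 difference 1.52, SE 0.19, adjusted p = 0.0164). Neither overlapped between genotypes. These calls and that of Mrpl36 were lost, like all others, without any 1 of the heterozygous libraries. With the line as a block the adjusted p-values were 0.0792 for Pcx, 0.0539 for Pfkm and 0.125 for Mrpl36 in edgeR.

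On several chromosomes all genes of the set had the same sign of difference. All 7 genes on chromosome 13 (Cox7c, Ndufaf2, Ndufs4, Ndufs6, Sdha, Uqcrb and Uqcrfs1) had log2 differences below 0, with a median of -0.44. The other 384 genes of chromosome 13 with a mean of at least 5 CPM had median ratios of -0.54, -0.14 and -0.77 in lines 6, 23 and 34. All 6 genes on chromosome 4 (Ndufaf4, Ndufaf6, Ndufb6, Ndufs5, Sdhb and Uqcrh) were below 0 as well, with a median of -0.54, and the other genes there had medians of -0.35, -0.47 and -0.25. On chromosome 15 all 4 (Atp5g2, Cox6c, Ndufa6 and Ndufb9) and on chromosome 19 all 4 (Cox8a, Ndufb8, Ndufs8 and Ndufv1) were above 0 in edgeR, although 1 and 3 of them were below 0 on TPM, where the median of all genes was -0.35. In edgeR the other genes of these chromosomes had median differences of 0.18 and 0.31. On chromosome 2 the 7 genes were all below 0, with a median of -0.48, and the other genes had a median of -0.06. The 5 genes on chromosome 10 were below 0 with the other genes at -0.16, and the 3 on chromosome 8 were above 0 with the others at 0.14. On chromosome X the 3 genes were above 0, while the others had a median of -0.02.

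Across the 86 genes, the ratio correlated with the median of the other genes of the chromosome with Pearson's r of 0.52, 0.63 and 0.43 in lines 6, 23 and 34, a description over genes that share their libraries and, in part, their chromosome. The same r over 9967 other genes was 0.23, 0.23 and 0.17. When the chromosome's median deviation was removed from each library, the set's genes on chromosome 13 had a median log2 difference of 0.02, and those on chromosome 4 of -0.22. Ndufaf2 then stood at -0.76 with an adjusted p of 0.165, Sdha at -0.40 and Ndufa6 at 0.60, and none of the 86 passed in edgeR, against 4.66% of all genes (9 of 86 had an unadjusted p under 0.05). Ndufaf4 and Ndufaf6 stood at -1.06 and -1.04. Whether chromosome-wide values have a part in those of single genes was not tested beyond this removal.

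**Figure D5:**
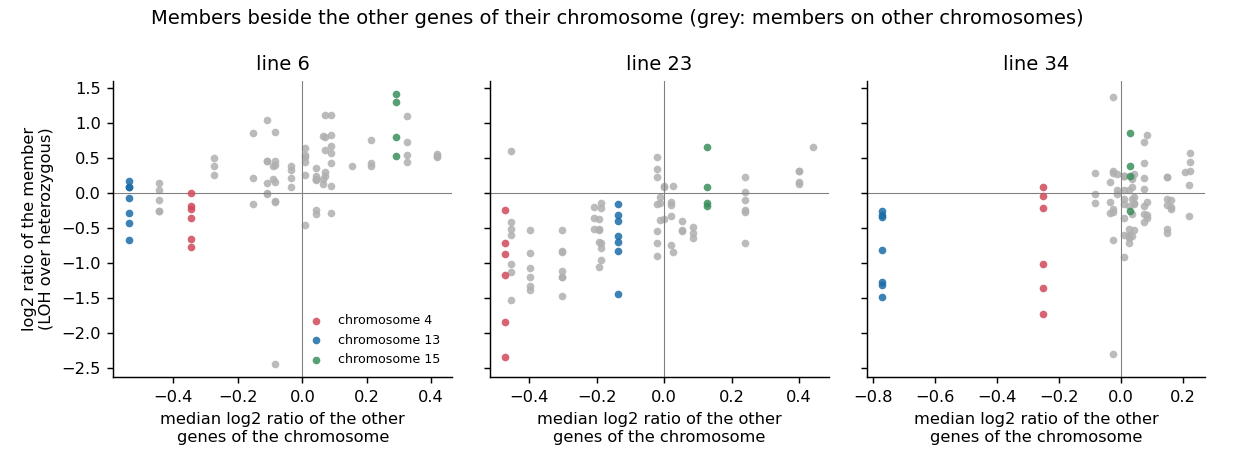
log2 ratio (LOH over heterozygous) of each tested gene of the set against the median log2 ratio of the other genes on its chromosome, 1 panel per organoid line; each point is 1 gene, and chromosomes 4, 13 and 15 are coloured. Chromosome 13 lies at -0.54, -0.14 and -0.77 on the horizontal axis in lines 6, 23 and 34, and Pearson's r is 0.52, 0.63 and 0.43.

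The transcripts of each gene were compared by their share of the gene's TPM. For 51 of 86 genes 1 transcript held at least 90% of the gene's TPM on average, and for 16 the leading transcript held under 60%. The share of the leading transcript did not overlap between genotypes for 18 of 86 genes. In 2 of these the group means differed by at least 10 points. The same count was not made over all genes. In Atp5j the leading transcript, annotated as a retained intron (Atp5j-208), held 51.9%, 45.5% and 39.9% in heterozygous and 66.1%, 57.0% and 54.8% in LOH libraries. Atp5j overlaps Gabpa on the other strand. In Ndufs4 the leading transcript, Ndufs4-204, is annotated for nonsense-mediated decay and held 50.2%, 44.0% and 46.7% against 31.3%, 34.4% and 38.4%. A second transcript with that annotation, Ndufs4-202, went the other way, at 27.3%, 37.5% and 29.6% against 51.3%, 43.2% and 42.6%. Ndufv3-202, a protein-coding transcript, held 78.1%, 75.9% and 79.9% against 87.7%, 83.9% and 87.2%. In Ndufab1 the leading transcript, annotated as a retained intron (Ndufab1-205), held 37.7%, 31.0% and 32.7% against 47.0%, 40.4% and 42.4%. The protein-coding Ndufab1-206 held 28.7%, 31.9% and 26.4% against 1.4%, 20.2% and 11.2%. These shares rest on estimated abundances and were not tested.

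Other tools made more calls in the set and in the transcriptome alike. DESeq2 called 5 of 86 (Ndufa6 higher; Ndufaf2, Ndufaf4, Ndufaf6 and Sdha lower), against 14.1% of all genes with an adjusted p. Called by limma on log2(TPM + 1) were 13 of 86, all lower, against 16% of all genes, on a scale where the median of all genes was itself -0.35. Ndufaf2, Ndufaf4, Ndufaf6 and Sdha were called by both and kept their sign in all 19 alternatives. The adjusted p of Ndufaf2 ranged from 0.00164 to 0.296 over them.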

How the data were processed

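RNA from 6 organoid cultures of KPC tumours was made into stranded total RNA libraries, per the labels' protocols. Expected counts per gene and transcript were deposited by the authors as RSEM tables, together with TPM, their abundances scaled for length and depth; library and series tables agreed in every value. The submitters' processing notes name FastQC 0.11.5, STAR 2.5.2b, RSEM 1.3.0, DESeq2 1.44.0 and build GRCm38.p5; table names give GENCODE release 16. The strand setting is not given in the sources used here. The deposited protein-coding signal table, counts divided by library factors, served to choose the genes. Genes and lists were chosen with earlier results of these data known.

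Expected counts were rounded, filtered with filterByExpr to 14537 genes, scaled by TMM and tested with edgeR 4.0.16 (R 4.3.3; quasi-likelihood, 3 LOH against 3 heterozygous libraries, two-sided, no block), with Benjamini-Hochberg adjustment over all genes tested and a threshold of 0.05. Totals ran from 13680458 to 27917277 counts, and a gene at 3 counts lies at 0.1 to 0.223 CPM. Log2 ratios within a line used a prior count of 2. Positions came from GENCODE release 21 (GRCm38); promoters came from RefSeq. Transcript shares are percent of a gene's deposited TPM. Genes named were those past the threshold, the 2 of lowest p and the 1 of highest TPM in each class, the isoform pairs of subunits, the Sdh genes and the gene of lowest p in each other list; further genes were named after their values were seen. Alternatives were other scalings and filters, the line as a block, DESeq2 1.42.0, limma 3.58.1 on log2(TPM + 1) or log2(TPM + 0.1) for genes of at least 1 TPM in 3 libraries, each library or line left out, and, chosen after seeing the data, chromosome medians removed. The numbers pair libraries because the titles name the same organoid line; deviations of same-numbered libraries correlated at -0.295, 0.00943 and 0.294 for lines 6, 23 and 34. A few results are not reported here. Scripts were tested on simulated data.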

Additional observations from a re-analysis of the deposited data

Results flagged for a closer look

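The log2 ratio of LOH over heterozygous differed in sign between organoid lines for most classes of respiratory chain genes. It also did so for several of the genes named in advance, to which the single genes below are limited. Over the whole set 32 of 86 tested genes (37.2%) shared the sign in all 3 lines, against 44.5% of all tested genes. With 1 library of either genotype per line, these differences between lines were not tested. The values below are distances, highest line minus lowest line, on the log2 scale.

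For the median over all 86 tested genes the distance was 0.772, between 0.253 in line 6 and -0.519 in line 23. Among the classes it was 0.318 for complex I core subunits, 0.759 for complex I accessory subunits, 0.803 for complex II, 0.794 for complex III, 0.842 for the common subunits of complex IV, 1.03 for the F1 head of complex V and 0.811 for its membrane and stalk subunits. Line 6 was the highest and line 23 the lowest in all of these but the complex I core, where line 34 was the lowest.

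Among single genes whose sign differed between lines, the c-ring gene Atp5g1 had a distance of 2.18, from 1.11 in line 6 to -1.06 in line 23, while its sister Atp5g2 had 0.786. Sdhd had 1.63 and the assembly factor Ndufaf8 had 1.53. Distances were 1.18 for Uqcrc2 and 0.749 for Uqcr11 in complex III, and 1.03 for Atp5a1 and 1.18 for Atp5h in complex V. In complex IV they were 0.529 for Cox4i1, 0.865 for Cox6a1, 1.17 for Cox7a2 and 0.538 for Ndufa4. The mitochondrially encoded mt-Co1 had 1.26, with the opposite order: -0.163 in line 6, 1.10 in line 23 and nearly as much in line 34.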

How the results depend on the processing

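Of 757 genes called in edgeR, 213 were called with the replicate block on organoid line, and the 1 respiratory chain call became 0. DESeq2 called 2262 genes and 5 of the set; limma called 1911 and 13 on log2(TPM + 1), and 1753 and 13 on log2(TPM + 0.1). The set had 0 calls with upper quartile scaling, with no filter on low counts and with chromosome medians removed, and 2 (Ndufaf2 and Ndufaf6) with at least 10 counts in every library or among protein-coding genes alone. Leaving out 1 library gave 0 to 2449 calls and 0 to 6 in the set: 2449 and 6 without LOH line 6, 451 and 0 without LOH line 23, 796 and 0 without LOH line 34, and 0 without any 1 heterozygous library, where 2272 to 2966 genes and 6 to 11 of the set had an unadjusted p under 0.05. Without both libraries of line 6 there were 1422 calls and 4 in the set; without line 23 or line 34 there were 0 and 0 (2253 and 2097 genes at an unadjusted p under 0.05). The cause of these changes was not tested.

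On log2(TPM + 1) and log2(TPM + 0.1), median log2 differences were -0.50 and -0.51 for the set, -0.50 and -0.51 for the complex I core, -0.34 and -0.35 for its accessory subunits, -0.86 and -0.87 for complex II, -0.30 and -0.30 for complex IV common subunits, -0.0136 and -0.0137 for complex IV isoforms, and -0.42 and -0.42 for the complex V membrane and stalk subunits; all genes had -0.35 and -0.42. The median of the complex IV isoforms, 0.36 over 3 genes in edgeR, was 0.084 over 5 genes with no filter, 0.22 to 0.47 with 1 library left out, and 0.20 without line 6. Of 86 genes 39 kept their sign in each alternative that tested them (19, or 18 for Cox6b2 and Cox7a1) and 72 were called in none. Depth limits Cox4i2 and Ndufa4l2, which lie near or below the level of 3 counts, and Cox6b2 and Cox7a1, whose lowest libraries do.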
